A study of Mus musculus with 2 samples.

Results

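CC chemokines are small secreted proteins that direct white blood cells along gradients. The genes described here are 8 ligands that macrophages and monocytes commonly make or follow, Ccl2, Ccl3, Ccl4, Ccl6, Ccl7, Ccl8, Ccl9 and Ccl12, together with Ccr2, the receptor that brings inflammatory monocytes out of the bone marrow into tissue. They were taken by symbol and by no cutoff on a measured value, though with earlier results of these data known. All 9 were found among the 19465 genes of the probe panel. All 9 had at least 100 UMIs (unique molecular identifiers, each standing for 1 captured probe molecule) in both libraries.

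The data were spatial transcriptomes of mouse pancreatic tumors on Visium CytAssist slides, on which probes hybridized in a tissue section are captured by an array of barcoded spots. A spot is a small patch of tissue, and the RNA of cells of several types can meet in it. There was 1 library for each of 2 groups. KPC cells are a mouse pancreatic cancer line from genetically engineered animals that develop pancreatic tumors, so both groups shared its alleles, and both were grown as orthotopic allografts in the pancreas. KPC-shZEB1 cells carried a short hairpin RNA against Zeb1, a transcription factor of epithelial-mesenchymal transition, and KPC-shV cells carried the control vector. The labels name no drug, strain or age for these 2 libraries. The study's text states that its spatial data came from the tumors that also gave its single-cell data. It describes those tumors, of both groups, as treated with gemcitabine. Per the labels, 2 tumors per group were sectioned, and which tumor a library covers is not stated. With 1 library per group no difference between the groups could be tested. The intervals below are exact 95% intervals that cover counting error only, and a log2 ratio of 1 or more, or of -1 or less, was used as a size rule in place of a test.

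As background, Ccl2, Ccl7 and Ccl12 are monocyte chemoattractants that act through Ccr2, and this axis is known for supplying tumors with monocytes that become macrophages. Mouse Ccl8 acts mainly through Ccr8. Ccl3 and Ccl4 are made by activated myeloid cells and lymphocytes, and Ccl3 binds Ccr1. Ccl6 and Ccl9 are rodent ligands of Ccr1 made by myeloid cells.

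The 8 ligand genes lay on chromosome 11 in 2 groups. On the GRCm38 build, Ccl2 (82035571 to 82037453), Ccl7 (82045712 to 82047525), Ccl12 (82101845 to 82103400) and Ccl8 (82115185 to 82116799) spanned 81.2 kb, all on the plus strand. Some 1456 kb further on, Ccl9 (83572919 to 83578636), Ccl6 (83587882 to 83593087) and Ccl3 (83647844 to 83649355) on the minus strand and Ccl4 (83662584 to 83664683) on the plus strand spanned 91.8 kb. Ccr2 lay on chromosome 9 (124101950 to 124113557, plus strand). All 9 are annotated as protein-coding genes.

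The 120 bases before the RefSeq start of 3 of these genes are shown because the genes had the most different patterns below. Ccl12 and Ccl8 were higher in both macrophage-rich and fibroblast-rich spots, and Ccl3 was higher in neutrophil-rich spots. For Ccl3 the RefSeq start lies upstream of the gene end given above. The printed bases are RefSeq sequences of GRCm38.p6, read along the gene's own strand at chr11:82101725-82101844, chr11:82115065-82115184 and chr11:83649379-83649498. Capitals mark exact matches to the TATA box letters TATAAAA. The Ccl3 bases hold no exact match, though they end with the similar letters tataagagaag.
Ccl12: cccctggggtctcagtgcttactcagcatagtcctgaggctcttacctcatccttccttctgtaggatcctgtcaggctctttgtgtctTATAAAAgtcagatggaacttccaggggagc
Ccl8: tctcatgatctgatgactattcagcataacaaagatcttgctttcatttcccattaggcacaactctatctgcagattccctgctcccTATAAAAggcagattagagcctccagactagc
Ccl3: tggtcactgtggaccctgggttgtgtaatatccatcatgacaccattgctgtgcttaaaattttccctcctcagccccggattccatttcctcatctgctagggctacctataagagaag

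RefSeq promoter entries were matched for 6 of the 9 genes (Ccl12, Ccl8, Ccl3, Ccl6, Ccl9 and Ccr2). The letters TATAAAA, searched on both strands of the 250 bases before the start, were held by 4.98% of 32851 promoters, and by those of Ccl12 (from base -31), Ccl8 (from base -32) and Ccl9 (3 matches, from bases -225, -95 and -92, the last 2 overlapping). The NF-kB motif (GGG, any 3 bases, then TTCC), held by 4.65% of promoters, was found in that of Ccl9 alone, from base -35. The hypoxia response core ACGTG, held by 16.6% of promoters, was found in none of the 6. These are matches of letters in a window and not sites of binding.

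The KPC-shZEB1-labelled library held 2220 spots and 140493626 UMIs, with a median of 59957.5 UMIs per spot, and the KPC-shV-labelled one held 3552 spots and 172059528 UMIs, with a median of 52544.5. Acinar genes of the normal pancreas made up 26.4% and 2.06% of the UMIs, and 769 and 286 spots took more than 20% of their UMIs from them (acinar-rich spots). Levels are given as UMIs per 1000000 UMIs (CPM) over the remaining 1451 and 3266 spots unless stated, since the median log2 ratio of all genes between the libraries was -0.48 over all spots and -0.01 over these. In these spots 10 genes not expected in this tissue reached 0.565 to 2.00 CPM. Zeb1 itself was at 15.6 CPM in the KPC-shZEB1-labelled library and 12.7 CPM in the KPC-shV-labelled one outside the acinar-rich spots. This log2 ratio of 0.30 goes against the label. The hairpin was carried by the injected cells, while spots also hold RNA of host cells, so the ratio does not measure knockdown in the tumor cells. The study measured knockdown in the KPC cells separately. A summed list of fibroblast genes had a log2 ratio of 0.32 in these spots, and its part in the Zeb1 level was not tested. Over all spots Zeb1 was at 10.8 and 12.4 CPM (-0.20), above the median of all genes there. Its ratio was 0.28 with median-of-ratios scaling of all spots. The slides share one set of spot barcodes, and 1718 barcodes occurred in both libraries.

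Between the libraries, in counts summed outside the acinar-rich spots, the widest difference among the 9 genes was that of Ccl8. It stood at 497.8 CPM (493.0 to 502.5) in the KPC-shZEB1-labelled library and at 170.3 CPM (168.3 to 172.3) in the KPC-shV-labelled one, a log2 ratio of 1.55 (1.53 to 1.57), or 2.92-fold. Ccl8 was the only gene of the 9 past a log2 ratio of 1, which 4.93% of the 14353 genes tested passed (those with 100 UMIs or more in each library), and none was at -1 or below, where 2.01% of genes lay. Over all spots its ratio was 1.06, with 388.5 and 186.9 CPM. Ccl3 had the wider difference over all spots and as the mean of the single spots' CPM, as given further on. In the acinar-rich spots, described further on, Ccl8 was the higher in CPM in the KPC-shV-labelled library, but not per UMI of macrophage genes.

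The Ccr2 ligands differed less. Ccl7 was at 74.1 CPM (72.3 to 76.0) and 51.1 CPM (50.01 to 52.2) in the KPC-shZEB1-labelled and KPC-shV-labelled libraries, a log2 ratio of 0.54 (0.49 to 0.58) that was -0.01 over all spots. Ccl12 was at 32.7 CPM (31.5 to 33.9) and 25.6 CPM (24.9 to 26.4), with a log2 ratio of 0.35 (0.28 to 0.42) that turned to -0.21 over all spots. Ccl2 had few UMIs, 561 and 678, and was at 6.60 CPM (6.06 to 7.17) and 4.11 CPM (3.81 to 4.43), with a log2 ratio of 0.68 (0.52 to 0.85) that was 0.11 over all spots. None of these 3 ligands therefore differed by the size rule, and over all spots the interval of Ccl2 (-0.05 to 0.27) held 0. The median of all genes was at -0.48 over all spots, below each of these 3 ratios. With median-of-ratios scaling of all spots the ratios were 0.47 for Ccl7, 0.27 for Ccl12 and 0.59 for Ccl2, with no turn of direction. Their receptor Ccr2 was at 85.0 CPM (83.1 to 87.0) and 44.9 CPM (43.9 to 45.9), with a log2 ratio of 0.92 (0.87 to 0.97), and of 0.35 over all spots.

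The Ccr1 ligands Ccl6 and Ccl9 differed by nearly the same ratio. Ccl6 was at 1196 CPM (1189 to 1204) in the KPC-shZEB1-labelled library and 699.6 CPM (695.5 to 703.6) in the KPC-shV-labelled one, a log2 ratio of 0.77. Ccl9 was at 225 CPM (222 to 229) and 130.4 CPM (128.7 to 132.2), with a log2 ratio of 0.79. Over all spots the ratios were 0.22 and 0.25. Probe sequences were not used here, so probes shared by related genes were not checked. The annotated transcripts of Ccl6 and Ccl9 share a run of 25 bases, the longest among the 28 pairs of ligands, whose median was 11.

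Ccl3 and Ccl4 went the other way. Ccl3 was at 5.199 CPM (4.73 to 5.71; 442 UMIs) in the KPC-shZEB1-labelled library and at 10.0 CPM (9.55 to 10.5; 1654 UMIs) in the KPC-shV-labelled one, a log2 ratio of -0.95 (-1.10 to -0.80). Ccl4 was at 13.5 CPM (12.7 to 14.3) and 18.7 CPM (18.0 to 19.3), with a log2 ratio of -0.47 (-0.56 to -0.37). Both passed the size rule over all spots, at -1.57 and -1.11, where 9.21% of all genes were at -1 or below. With median-of-ratios scaling of all spots Ccl3 was at -1.09 and Ccl4 at -0.63, short of the rule. The 8 ligands together were at 2052 and 1109.9 CPM, a log2 ratio of 0.89 (0.88 to 0.90), and of 0.36 over all spots.

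**Figure D1:**
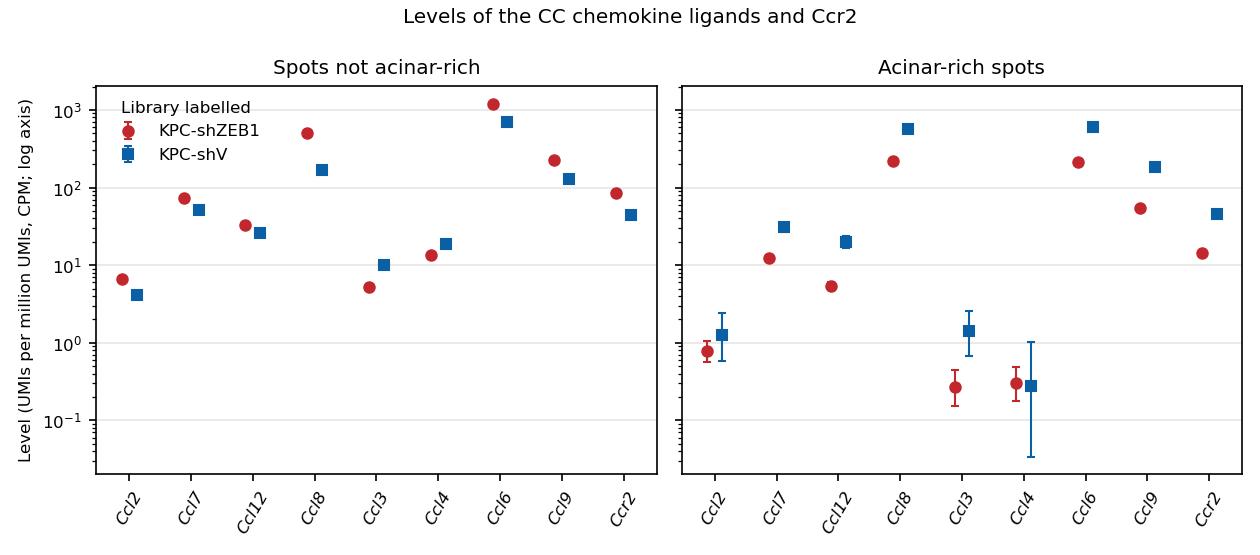
Level of each gene in CPM on a log axis, outside the acinar-rich spots (left) and in them (right), for the libraries labelled KPC-shZEB1 (red circles) and KPC-shV (blue squares), with exact Poisson 95% intervals as bars. On the left 7 genes are higher in the KPC-shZEB1-labelled library and Ccl3 and Ccl4 are lower, and on the right Ccl8 is at 221 and 572 CPM.

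Marker genes of several cell types also differed between the libraries, and their part in the chemokine differences was not tested. All 7 macrophage markers were higher in the KPC-shZEB1-labelled library, by log2 ratios of 0.27 (Mrc1, a scavenger receptor) to 0.75 (Adgre1, which encodes F4/80). Their sum was at 2617 and 1703 CPM, a log2 ratio of 0.62. It was 0.04 over all spots and 0.52 with median-of-ratios scaling of all spots. All 5 neutrophil markers were lower, from -1.89 (S100a9) to -0.33 (Csf3r), with sums of 128 and 313 CPM. The summed T cell list was at 79.5 and 13.7 CPM and the summed list of 9 hypoxia genes at 570.1 and 1345 CPM. Of the monocyte markers, Ly6c2 was not in the gene list used here, and Chil3 was at 1.45 and 0.740 CPM. F13a1 was at 37.1 and 34.3 CPM (log2 ratio 0.11, 0.05 to 0.18) and Ms4a4c at 6.02 and 3.55 CPM (0.76). The sum rested on Plac8, at 2345 and 1896 CPM, so that monocytes could not be followed by it. In such spots fewer cells of a type and less RNA per cell cannot be told apart.

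Set against the macrophage genes, the ligands differed in direction. Per 1000 UMIs of the macrophage list, Ccl8 gave 190 UMIs in the KPC-shZEB1-labelled library and 100 in the KPC-shV-labelled one (log2 ratio 0.93). Ccl2, Ccl7, Ccl12, Ccl6 and Ccl9 lay between log2 ratios of -0.27 (Ccl12) and 0.17 (Ccl9), and Ccr2, with 32.5 and 26.4 UMIs, at 0.30. Ccl3 gave 1.99 and 5.89 UMIs (-1.57) and Ccl4 gave 5.16 and 10.96 (-1.09). Per 1000 UMIs of the neutrophil list the direction turned, with 40.7 and 32.1 UMIs of Ccl3 (0.34) and 106 and 59.7 of Ccl4 (0.82). The neutrophil list itself had a log2 ratio of -1.29, which raises every gene set against it. Each of the 9 genes was positive this way, up to 2.84 for Ccl8 and 2.21 for Ccr2. The turn is thus not particular to Ccl3 and Ccl4.

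The same genes were then followed across 4 classes of spots. A spot outside the acinar-rich ones with at least 1000 UMIs was called macrophage-rich, fibroblast-rich, neutrophil-rich or hypoxic when the summed CPM of that marker list was in the top 10% of such spots of both libraries pooled; none of the chemokine genes is in a list. This gave 145 and 327 macrophage-rich spots in the KPC-shZEB1-labelled and KPC-shV-labelled libraries, 93 and 379 fibroblast-rich spots, 10 and 462 neutrophil-rich spots and 9 and 463 hypoxic spots. The classes overlapped: 220 of the 327 macrophage-rich spots (67.3%) of the KPC-shV-labelled library were also fibroblast-rich, against 33 of 145 (22.8%) in the other, and 294 of its 462 neutrophil-rich spots (63.6%) were also hypoxic. No macrophage-rich spot was hypoxic in either library.

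In macrophage-rich spots 6 of the 9 genes (Ccl7, Ccl12, Ccl8, Ccl6, Ccl9 and Ccr2) were at least 2-fold higher than in the other spots in both libraries, as were 10.6% of all genes tested. Ccl8 was at 1886 against 373 CPM in the KPC-shZEB1-labelled library, a log2 ratio of 2.34 (2.31 to 2.37), and at 1315 against 106 CPM in the KPC-shV-labelled one, a log2 ratio of 3.63 (3.60 to 3.67). Ccr2 was at 252 against 70.0 CPM (1.85) and at 355 against 27.5 CPM (3.69). These were 10.0% of the spots of the KPC-shV-labelled library and held 5.31% of its UMIs, but 42.0% of its Ccr2 and 41.0% of its Ccl8 UMIs. They were shallower there, with a median of 23827 UMIs against 58266 in the other spots. In the KPC-shZEB1-labelled library the medians were 47007 and 59564.

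The other genes of this set followed in the same order of libraries. Ccl9 was at 540.4 against 197 CPM in the KPC-shZEB1-labelled library (1.45) and at 793 against 93.3 CPM in the KPC-shV-labelled one (3.09). Ccl6 was at 2741 against 1058 CPM (1.37) and at 2772 against 583 CPM (2.25). Each of the 6 genes had the wider ratio in the KPC-shV-labelled library, where the level outside these spots was the lower. Among the Ccr2 ligands, Ccl12 was at 94.999 against 27.1 CPM (1.81) and 133 against 19.6 CPM (2.76), and Ccl7 at 186 against 64.1 CPM (1.53) and 234 against 40.8 CPM (2.52). Ccl2, on 75 and 103 UMIs in these spots, had log2 ratios of 0.78 (0.41 to 1.14) and 1.68 (1.36 to 1.98).

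Ccl3 and Ccl4 did not share this pattern. In the macrophage-rich spots of the KPC-shV-labelled library Ccl3 was at 3.43 against 10.4 CPM, a log2 ratio of -1.60 (-2.17 to -1.08), and Ccl4 at 9.94 against 19.2 CPM, a log2 ratio of -0.95 (-1.27 to -0.64). In the KPC-shZEB1-labelled library the intervals of both ratios held 0, at 0.34 (-0.14 to 0.78) and -0.28 (-0.63 to 0.05). When spots that belonged to a second class were left out, the ratio of Ccl4 in the KPC-shV-labelled library was 0.35 in place of -0.95.

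Fibroblast-rich spots resembled macrophage-rich spots in the KPC-shV-labelled library and less so in the other. There 4 of the 9 genes (Ccl7, Ccl12, Ccl8 and Ccr2) were at least 2-fold higher in both libraries, as were 9.15% of all genes. Ccl8 was at 1568 against 442 CPM in the KPC-shZEB1-labelled library (1.83) and at 1287 against 113 CPM in the KPC-shV-labelled one (3.50). Ccr2 was at 171 against 80.6 CPM (1.08) and at 363 against 28.7 CPM (3.66). The fibroblast-rich spots had a median of 42773 UMIs against 59162 in the others in the KPC-shZEB1-labelled library. In the KPC-shV-labelled one the medians were 16698 and 59225. Ccl12 had the widest ratio of the 9 genes in these spots of the KPC-shZEB1-labelled library, 1.90 (1.75 to 2.04), with 107 against 28.8 CPM, an interval that held the ratio of Ccl8. In the KPC-shV-labelled library Ccl12 was at 152 against 19.2 CPM (2.99). In both libraries its level and ratio were higher in fibroblast-rich than in macrophage-rich spots.

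The Ccr1 ligands separated the libraries here. Ccl6 was at 1042 against 1204 CPM in the fibroblast-rich spots of the KPC-shZEB1-labelled library, a log2 ratio of -0.21 (-0.25 to -0.16), and at 2365 against 615 CPM in those of the KPC-shV-labelled library, a log2 ratio of 1.94 (1.92 to 1.97). Ccl9 had log2 ratios of 0.36 (0.27 to 0.44) and 2.85 (2.81 to 2.90). The summed macrophage list was at 5013 against 2492 CPM and at 6535 against 1457 CPM in and out of these spots, and its part in the difference was not tested. Ccl3 and Ccl4 were lower in fibroblast-rich spots in both libraries, with log2 ratios of -1.69 and -1.73 for Ccl3 and -1.35 and -1.43 for Ccl4.

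In the KPC-shV-labelled library, neutrophil-rich and hypoxic spots turned the order around. The counts over both libraries rest on only 10 and 9 such spots in the KPC-shZEB1-labelled one, which are described further on. In neutrophil-rich spots 3 of the 9 genes (Ccl3, Ccl4 and Ccl6) were at least 2-fold higher in both libraries, as were 3.57% of all genes, and in hypoxic spots 2 of 9 (Ccl3 and Ccl4), as were 2.30% of all genes. In the 462 neutrophil-rich spots of the KPC-shV-labelled library Ccl3 was at 87.6 against 6.43 CPM, a log2 ratio of 3.77 (3.62 to 3.91), and Ccl4 at 159 against 12.2 CPM, a log2 ratio of 3.71 (3.60 to 3.81). These spots were shallow, with a median of 11569 UMIs against 60219 in the others, and held 4.44% of the UMIs but 38.8% of the Ccl3 and 37.7% of the Ccl4 UMIs. Among spots with at least 20000 UMIs the ratios were 2.64 and 2.54.

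In the same spots of the KPC-shV-labelled library, Ccl8 was at 28.3 against 177 CPM (-2.65) and Ccr2 at 7.51 against 46.6 CPM (-2.63). Ccl6 was at 1559 against 660 CPM (1.24), while Ccl9, its neighbour on the chromosome, was at 129.9 against 130.4 CPM (-0.01). The Ccr2 ligands Ccl2, Ccl7 and Ccl12 had log2 ratios of 0.27, -0.37 and -0.83. The macrophage list was at 645 CPM in these spots against 1752 CPM in the others, and a list of inflammatory myeloid genes at 909 against 218 CPM; the part of either in these levels was not tested.

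The KPC-shZEB1-labelled library had 10 neutrophil-rich spots, too few to describe a region. They held 18 UMIs of Ccl3 (63.1 against 5.004 CPM, log2 ratio 3.66, 2.89 to 4.33) and 25 UMIs of Ccl4 (87.6 against 13.3 CPM, 2.72, 2.09 to 3.29). Unlike those of the other library they were also rich in macrophage genes, at 6460 CPM, and held Ccl8 at 1816 against 493 CPM (1.88). When the class was instead the top 10% within each library, 145 spots, the log2 ratios were 1.25 for Ccl3 (10.9 against 4.61 CPM) and 1.05 for Ccl4 (25.4 against 12.3 CPM) in the KPC-shZEB1-labelled library, and 4.17 and 4.11 in the KPC-shV-labelled one. The neutrophil list was then at 465 and 3928 CPM in the class, so the spots compared differed in neutrophil genes as well.

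Hypoxic spots of the KPC-shV-labelled library held Ccl3 at 49.8 against 6.93 CPM (2.84, 2.70 to 2.99) and Ccl4 at 94.9 against 12.7 CPM (2.90, 2.79 to 3.004). Ccl8 was at 20.8 against 182 CPM (-3.13) and Ccr2 at 4.53 against 48.1 CPM (-3.41). The other 5 ligands lay between -1.54 (Ccl12) and 0.57 (Ccl6). With the hypoxic spots that belonged to no other class, the ratios of Ccl3 and Ccl4 were 1.96 and 1.93. The neutrophil list was at 1362 CPM in the hypoxic spots against 231 CPM in the others, and its part in the levels of Ccl3 and Ccl4 was not tested beyond that restriction.

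The 9 hypoxic spots of the KPC-shZEB1-labelled library held 23 UMIs of Ccl3 (70.9 against 4.95 CPM, 3.84) and 32 of Ccl4 (2.90), but 9 of Ccl8 (-4.17) and 1 of Ccr2. With the top 10% of spots within the library as the class, Ccl3 and Ccl4 had log2 ratios of 0.55 and 0.20 there, below the size rule, against 2.75 and 2.93 in the KPC-shV-labelled library. Ccl8 and Ccr2 kept low ratios, at -2.34 and -2.38 against -3.02 and -3.62.

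**Figure D2:**
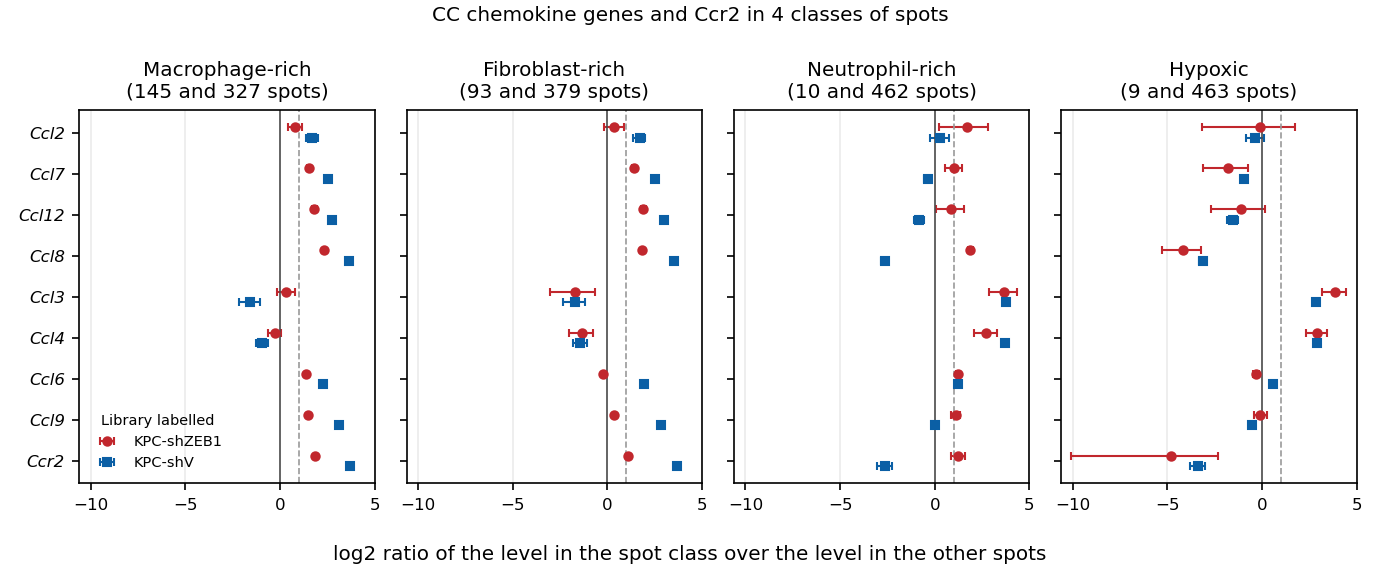
Log2 ratio of each gene's level in a class of spots over its level in the other spots, for macrophage-rich, fibroblast-rich, neutrophil-rich and hypoxic spots, with exact conditional binomial 95% intervals as bars; the solid line is at 0, the dashed line at 1, and spot counts are for the KPC-shZEB1-labelled and KPC-shV-labelled libraries. Ccl3 and Ccl4 lie to the right in the last 2 panels and at or left of 0 in the fibroblast-rich panel, and Ccl8 and Ccr2 of the KPC-shV-labelled library do the opposite.

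The levels also changed stepwise with the marker lists. With the spots of each library ordered by the macrophage list and cut into 10 equal parts, Ccl8 went from 6.24 CPM in the lowest part to 1315 CPM in the highest in the KPC-shV-labelled library and from 60.7 to 1886 CPM in the KPC-shZEB1-labelled one. It was higher in each part than in the part before in both libraries. Ccr2 went from 2.51 to 355 CPM and from 15.5 to 252 CPM. In the lowest part Ccl8 and Ccr2 were thus several-fold higher in the KPC-shZEB1-labelled library, and in the highest part Ccr2 was lower there. The macrophage list itself was at 677 CPM in the lowest part of the KPC-shZEB1-labelled library and at 198 CPM in that of the other.

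Ccl8 rose faster than the macrophage genes along this order. Per 1000 macrophage UMIs, the highest part held 270.0 UMIs of Ccl8 and the lowest 89.6 in the KPC-shZEB1-labelled library, and 177 and 31.6 in the KPC-shV-labelled one. Ccr2 held 36.1 and 22.8 UMIs in the former and 47.8 and 12.7 in the latter. Ccl6 went from 406 to 2741 CPM and from 420 to 2772 CPM in the KPC-shZEB1-labelled and KPC-shV-labelled libraries, so that both ends were alike, but the ninth part was at 2334 CPM in the first and 1313 CPM in the second.

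Ccl3 and Ccl4 ran against the macrophage list in the KPC-shV-labelled library, from 21.8 to 3.43 CPM and from 35.4 to 9.94 CPM. In the KPC-shZEB1-labelled library they showed no trend along it, with Ccl3 between 3.65 and 6.71 CPM and Ccl4 between 9.07 and 15.4 CPM in the 10 parts. Along the neutrophil list, Ccl3 went from 2.62 to 133 CPM and Ccl4 from 6.27 to 240.1 CPM in the KPC-shV-labelled library, with most of the change in the last 3 parts, the highest of which had a median depth of 7082 UMIs per spot. In the KPC-shZEB1-labelled library Ccl3 went from 1.99 to 10.9 CPM and Ccl4 from 4.40 to 25.4 CPM. Per 1000 neutrophil UMIs the highest part held 33.9 UMIs of Ccl3 and 61.1 of Ccl4 in the KPC-shV-labelled library. In the KPC-shZEB1-labelled library it held 23.5 and 54.7. The lowest part held more, 160 and 384 in the KPC-shV-labelled library and 875 and 1938 in the other. The neutrophil list itself was at only 16.3 and 2.27 CPM in those lowest parts.

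**Figure D3:**
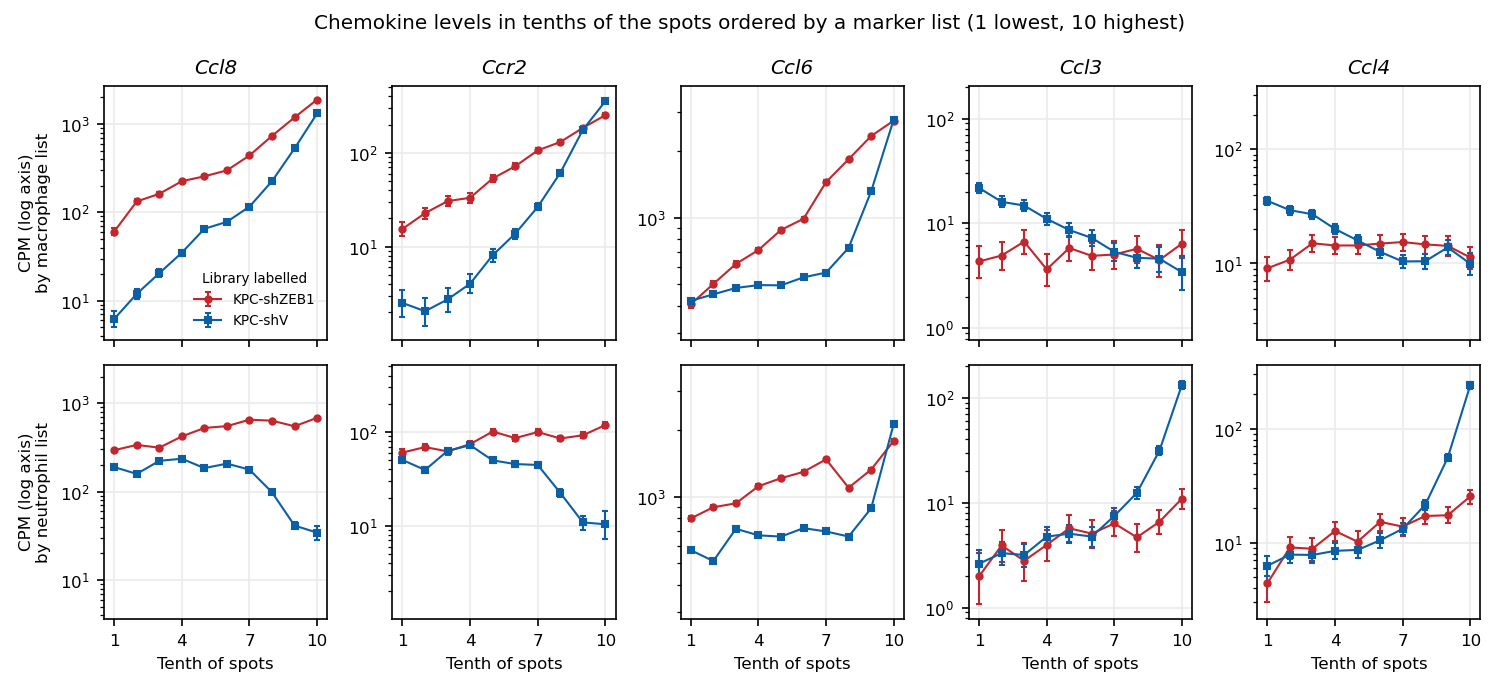
Level in CPM (log axis) of Ccl8, Ccr2, Ccl6, Ccl3 and Ccl4 in 10 equal parts of the spots of each library ordered by the macrophage list (top) or the neutrophil list (bottom), from lowest (1) to highest (10), with exact Poisson 95% intervals as bars. Ccl8 and Ccr2 rise from left to right in the top row, and Ccl3 and Ccl4 of the KPC-shV-labelled library fall there and reach 133 and 240.1 CPM at the right of the bottom row.

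Splitting each library at the median of both lists placed Ccl3 in spots with many neutrophil and few macrophage UMIs. In the KPC-shV-labelled library it was at 22.2 CPM (20.9 to 23.6) in the 1087 spots high for neutrophil and low for macrophage genes, and at 3.60 to 10.0 CPM in the other 3 combinations. Ccl4 was at 39.3 CPM (37.5 to 41.1) in those spots and at 7.26 to 19.8 CPM in the others. In the KPC-shZEB1-labelled library the same 295 spots were also the highest, with 7.46 CPM of Ccl3 (6.29 to 8.78) and 18.9 CPM of Ccl4 (17.1 to 21.0), but the intervals overlapped those of spots high for both lists, at 5.94 and 16.6 CPM. Ccr2 and Ccl8 differed mainly along the macrophage side of the split. In the KPC-shZEB1-labelled library Ccr2 was at 28.2 and 34.6 CPM in the macrophage-low spots against 131 and 150.1 CPM in the macrophage-high spots. In the KPC-shV-labelled library it was at 3.82 and 4.26 CPM against 89.9 and 94.8 CPM. Ccl8 was at 21.4 and 39.0 CPM against 307 and 390 CPM there. Fibroblast genes were not part of this split, and their part in these levels was not tested.

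Within macrophage-rich and fibroblast-rich spots, the difference between the libraries was smaller or turned. In macrophage-rich spots Ccl8 had a log2 ratio of 0.52 (0.48 to 0.56) between the KPC-shZEB1-labelled library and the KPC-shV-labelled one, against 1.55 over all spots outside the acinar-rich ones. Ccr2 (-0.50), Ccl9 (-0.55), Ccl12 (-0.49) and Ccl7 (-0.34) were lower there, and Ccl6 did not differ by more than its interval (-0.02, -0.04 to 0.01). In fibroblast-rich spots Ccl6 (-1.18), Ccl9 (-1.35) and Ccr2 (-1.09) were at least 2-fold lower and Ccl8 was at 0.28. In the 1234 and 2151 spots that belonged to none of the 4 classes the ratios were 1.82 for Ccl8, 1.47 for Ccr2, 1.18 for Ccl9, 1.05 for Ccl6, 0.78 for Ccl2, 0.67 for Ccl7, 0.46 for Ccl12 and -0.25 for Ccl3. Ccl4 turned to 0.33 (0.21 to 0.44) in them, and Ccl3 to 0.91 (0.21 to 1.63) in macrophage-rich spots. For Ccl8, Ccr2, Ccl6 and Ccl9 the ratio outside the classes was thus wider than that in macrophage-rich or fibroblast-rich spots or had the opposite sign.

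In acinar-rich spots 7 ligands and Ccr2 were lower in CPM in the KPC-shZEB1-labelled library. The log2 ratios of the CPM between the libraries were -1.37 for Ccl8, -1.49 for Ccl6, -1.73 for Ccl9 and -1.68 for Ccr2, the reverse in direction of those outside. The macrophage list (-1.96), the fibroblast list (-2.29) and the genes not expected in the tissue (-1.34) were lower there too. Acinar genes stood at 657810 and 458838 CPM in these spots. CPM divide by all UMIs, so a higher acinar share lowers the CPM of every other gene. Its part in the ratios was not computed. Ccl2 rested on 43 and 9 UMIs, and Ccl4, at the level of stray signal, was at 0.12. Per 1000 macrophage UMIs in these spots the direction did not turn. Ccl8 (531 and 353), Ccl6 (511 and 369), Ccl9 (131 and 112) and Ccr2 (34.7 and 28.5) were higher in the KPC-shZEB1-labelled library, as outside the acinar-rich spots. Ccl8 was at 221 CPM in acinar-rich spots against 498 CPM elsewhere in the KPC-shZEB1-labelled library (log2 ratio -1.17, -1.20 to -1.14), but at 572 against 170 CPM in the KPC-shV-labelled one (1.75, 1.70 to 1.79). Per 1000 macrophage UMIs it was the higher in acinar-rich spots in both libraries, with 531 against 190 UMIs and 353 against 100 UMIs. Ccl9 shared this pattern more weakly, at 54.6 against 225 CPM and 182 against 130.4 CPM (0.48, 0.40 to 0.56), with 131 against 86.1 and 112 against 76.6 UMIs per 1000 macrophage UMIs. A list of resident macrophage genes had log2 ratios of -1.59 and 1.08 between acinar-rich and other spots, nearer to those of Ccl8 than the macrophage list (-2.65 and -0.07) was. Ccr2 was at 14.4 against 85.0 CPM and at 46.1 against 44.9 CPM. Ccl3 (0.270 and 1.41 CPM) and Ccl4 (0.306 and 0.281 CPM) were within or below the range of the genes not expected in the tissue.

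The share of spots with a UMI was compared after each spot was thinned to 5000 UMIs, so that 4 and 185 of all spots were too shallow to enter. Ccl8 was then found in 57.5% (55.4 to 59.6) and 39.9% (38.3 to 41.6) of the spots in the order KPC-shZEB1 and KPC-shV, against 91.4% and 70.5% without thinning. Ccl3 was found in 1.58% (1.10 to 2.19) and 6.80% (5.97 to 7.70), and Ccl4 in 4.24% (3.44 to 5.17) and 10.6% (9.61 to 11.7); without thinning the shares were 15.5% and 29.4% for Ccl3 and 28.0% and 40.2% for Ccl4. Ccr2 was found in 22.7% (21.0 to 24.5) and 18.7% (17.35 to 20.01), against 67.6% and 45.0% without thinning. Ccl9 was found in 43.3% and 40.6%, Ccl7 in 20.9% and 22.6%, Ccl12 in 12.1% and 13.8% and Ccl2 in 2.57% and 2.64%. Outside the acinar-rich spots, thinned alike, the order turned for the last 3, with 28.7% and 23.0% for Ccl7, 16.2% and 14.2% for Ccl12 and 3.66% and 2.78% for Ccl2. There Ccl9 was found in 55.1% and 39.5%, Ccl8 in 68.1% and 36.2%, Ccr2 in 30.5% and 18.6%, Ccl3 in 2.35% and 7.36% and Ccl4 in 6.36% and 11.6%. For Ccl6 the shares, 73.1% and 87.4%, ran against its CPM over all spots, as did those of Ccl2, and no order was read from them; outside the acinar-rich spots Ccl6 was found in 90.1% and 87.7%. As a measure of stray signal, Ccl3 was found in 0.130% and 0.372% of the acinar-rich spots thinned alike, and Ccl4 in 0.2601% of them and in 0 of 269 spots, which allows a share of up to 1.12% (3 counts of 269) and has an exact upper bound of 1.36%. Before thinning those spots had medians of 65759 and 24438 UMIs, against 58495 and 57209 in the spots that were not acinar-rich.

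UMIs of Ccr2 and Ccl8 were more gathered in the KPC-shV-labelled library. The 5% of spots with the most UMIs of Ccr2 held 42.1% of them there and 24.1% in the KPC-shZEB1-labelled library, and those of Ccl8 held 37.1% and 25.7%. For Ccl6 the shares were alike, 22.0% and 23.6%. A single spot held at most 334 and 142 UMIs of Ccl8 and at most 6 and 7 of Ccl3, so the level of Ccl3 in any 1 spot was not measurable.

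Across spots, Ccl3 and Ccl4 were correlated with each other and little with the other genes. Pearson correlations of log2(1 + UMIs per 10000) were computed over the 1400 and 2656 spots with at least 20000 UMIs outside the acinar-rich ones; these spots share a library and differ in depth, and the values are descriptions. Ccl6 and Ccl9 had the highest correlation in both libraries, 0.85 and 0.78. Ccr2 had 0.60 and 0.71 with Ccl9 and 0.58 and 0.76 with Ccl8, Ccl8 and Ccl9 had 0.45 and 0.66, Ccl12 and Ccl8 0.58 and 0.70, and Ccl7 and Ccl12 0.60 and 0.68. Ccl3 and Ccl4 had 0.31 and 0.57 with each other and -0.22 to 0.23 with every other gene of the 9. Ccl2 reached at most 0.36, with Ccl7.

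**Figure D4:**
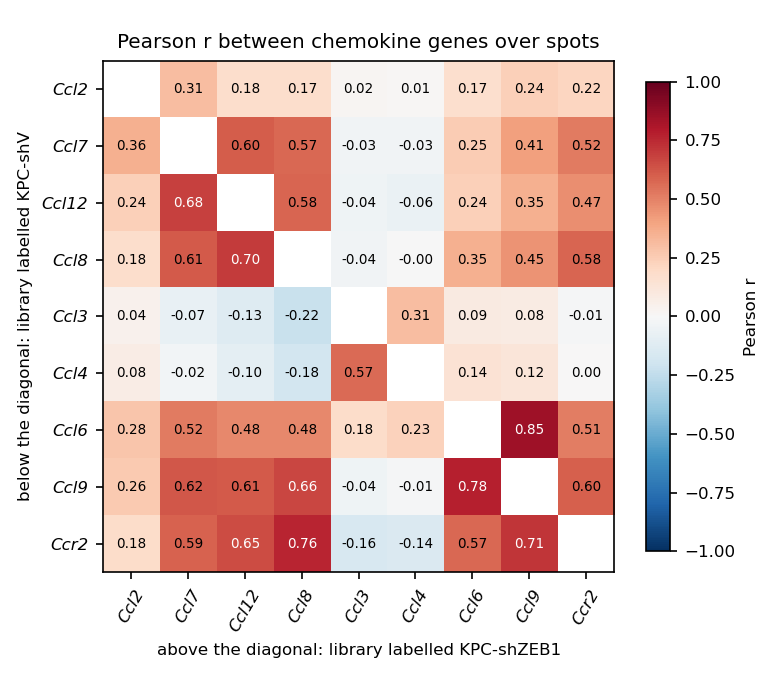
Pearson r between each pair of genes over spots with at least 20000 UMIs outside the acinar-rich spots, above the diagonal for the KPC-shZEB1-labelled library (1400 spots) and below it for the KPC-shV-labelled one (2656 spots). Ccl6 with Ccl9 is highest in both, and the rows of Ccl3 and Ccl4 are pale apart from their own pair.

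Among 9312 genes with at least 10 CPM in these spots of both libraries, those most like each chemokine gene were taken by the lower of the 2 correlations. Ccl8 was closest to C3 (0.81 and 0.76), the central complement component, then Aif1 (0.76 and 0.78) and C1qa (0.77 and 0.76), both macrophage genes. Ccl12 and Ccl7 were both closest to Mrc1, at 0.66 and 0.72 and at 0.62 and 0.61, and had Stab1, a scavenger receptor of resident macrophages, in second place. Ccl6 was closest to Wfdc17 (0.77 and 0.69), and Ccl9 to Fcgr2b, the inhibitory Fc receptor (0.68 and 0.70), with Cd68 in second place for both. Ccr2 was closest to Fcer1g (0.69 and 0.75), the shared Fc receptor chain, then Cst3 and Unc93b1.

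For the remaining genes the likeness to single genes, taken over both libraries, was weak. Shallow spots were not part of this, and the neutrophil-rich spots of the KPC-shV-labelled library had a median of 11569 UMIs. With the summed neutrophil list, Ccl3 and Ccl4 had correlations of 0.53 and 0.58 in that library and 0.18 and 0.23 in the other. Il1b, an inflammatory cytokine, came first for Ccl3 (0.22 and 0.29) and for Ccl4 (0.28 and 0.35), followed by Acod1 and Atf3 for Ccl3 and by Cd274, which encodes PD-L1 (0.27 and 0.41), and Upp1 for Ccl4. Alox5ap (0.23 and 0.23), Emb and Lcp1 led for Ccl2, whose UMIs were too few for more. With Spearman correlations in place of Pearson, none of the 3 genes named stayed among the leading 3 for Ccl7, Ccl3 and Ccr2, 1 did for Ccl2, Ccl8, Ccl4 and Ccl9, and 2 for Ccl12 and Ccl6.

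The remaining CC chemokines, their receptors and the macrophage growth factors were taken from a list of 32 genes, of which 28 were in the gene list used here and 26 had at least 100 UMIs in both libraries. Of these 26, 7 were at least 2-fold higher in the KPC-shZEB1-labelled library, 1 was at least 2-fold lower and 18 lay between, with a median log2 ratio of 0.53, beside 4.93% and 2.01% of all genes tested. Over all spots 4 were higher (Ccl1, Ccl5, Ccr7 and Ccr9) and 2 lower (Csf2 and Ccl24), beside 2.40% and 9.21% of all genes. The 7 were the ligands Ccl5 (2.18), Ccl1 (2.08), Ccl17 (1.60) and Ccl22 (1.51) and the receptors Ccr9 (1.65), Ccr7 (1.63) and Ccr6 (1.60). They are genes mainly of lymphocytes and dendritic cells. In the KPC-shV-labelled library Ccr9 (1.01 CPM) and Ccr6 (1.38 CPM) were within the range of the genes not expected in the tissue. Their ratios therefore rest on levels near stray signal. The 1 lower gene was Csf2, the granulocyte-macrophage growth factor, at 22.7 and 59.3 CPM (-1.39).

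Ccr1 and Ccr8, receptors of ligands described here, did not pass the size rule. Ccr1, the receptor of Ccl6 and Ccl9, was at 3.19 and 3.31 CPM (-0.05, -0.27 to 0.16). Ccr8, the receptor of Ccl8, was at 1.79 and 0.952 CPM, within the range of the genes not expected in the tissue. Csf1r, the receptor of the macrophage growth factors, was at 222 and 157 CPM (0.50).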

How the data were processed

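The authors deposited a matrix of raw UMI counts per gene and spot for each library, and every spot in it was used, since no tissue mask was used here; per the labels, frozen sections were probed with the Visium CytAssist kit, and the submitters' processing notes name Space Ranger 2.0.1 and mm10. The counts were used as deposited. Counts were summed over spots and divided by the total (CPM), with exact Poisson intervals. Ratios have exact conditional binomial intervals and shares exact Clopper-Pearson intervals, all at 95%. Spots with more than 20% of UMIs from 27 acinar genes were set apart. Spot classes took the top 10% of spots by a marker list. Positions came from GENCODE M21 (19451 of 19465 genes matched). No doublet caller was run, since a spot can hold several cells. Python 3.11.15, numpy 2.4.6, scipy 1.17.1, pandas 2.3.3 and matplotlib 3.10.9 were used, and the computations were tested on simulated data. The genes named are the 9 chemokine genes, Zeb1, the listed CC genes past a 2-fold difference, receptors and markers beside a result, and the 3 genes most correlated with each. The members and lists were chosen with earlier results of these data known. Alternatives were other sets of spots, thresholds, scalings, marker lists and thinning depths. With 1 library per group no test was made. Ly6c2, Folr2, Ccl19, Ccl21a, Ccl27a and Cx3cl1 were not in the gene list used here.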

Additional observations from a re-analysis of the deposited data

Results flagged for a closer look

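For 5 genes the difference between a class of spots and the other spots had opposite directions in the 2 libraries, with intervals that left out 0 in both. These differences between the libraries were not tested, since each group had 1 library. In fibroblast-rich spots Ccl6 had a log2 ratio of -0.21 in the KPC-shZEB1-labelled library and 1.94 in the KPC-shV-labelled one. In neutrophil-rich spots Ccl8 had 1.88 and -2.65, Ccr2 had 1.24 and -2.63, Ccl12 had 0.87 and -0.83 and Ccl7 had 0.99 and -0.37; the first library had 10 such spots, with the macrophage list at 6460 CPM against 645 CPM in those of the other. With the top 10% of spots within each library as the class, Ccl8 (0.51 and -2.34), Ccr2 (0.54 and -2.14) and Ccl12 (0.19 and -1.13) kept opposite directions, while Ccl7 was at -0.02 and -0.30. In hypoxic spots, 9 in the first library, Ccl6 had -0.34 and 0.57. Opposite signs with an interval that held 0 in 1 library were found for Ccl3 in macrophage-rich spots (0.34 and -1.60). The same held for Ccl9 in neutrophil-rich spots (1.12 and -0.01).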

How the results depend on the processing

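No paired analysis was possible because each group had 1 library. No ratio past the size rule turned its direction under the alternatives run; the acinar-rich spots alone, where Ccl8, Ccl6, Ccl9 and Ccr2 did turn between the libraries, are described with the results. Ccr2 (log2 ratio 0.92) was at 0.35 over all spots, 0.76 with acinar genes left out of the total, 0.83 with median-of-ratios scaling, 0.45 as an average of the single spots' CPM, 1.18 without the 5% of spots with the highest level and 1.05 in spots with at least 20000 UMIs. The summed ligands (0.89) were at 0.36 over all spots, 0.84 with acinar-rich meaning more than 5%, 0.77 with acinar genes left out, 0.84 with median-of-ratios scaling, 0.32 as the mean per spot and 0.9998 in spots with at least 20000 UMIs. Ccl3 (-0.95) lay between -2.42 as the mean per spot and -0.62 in spots with at least 20000 UMIs. Ccl4 (-0.47) lay between -1.90 and -0.17 in the same settings. The 1 gene at least 2-fold higher became 2 without the top 5% of spots and in spots with at least 20000 UMIs. The count of 0 at least 2-fold lower became 2 over all spots and as the mean per spot, and 1 with acinar genes left out, with median-of-ratios scaling and without the top 5% of spots. The 3 genes higher in neutrophil-rich spots became 1 with the top 5% of spots as the class, and the 2 higher in hypoxic spots became 1 with the top 20% and 0 with the top 10% within each library. Of 536 alternative values of class ratios 269 moved by more than the counting interval, as did 57 of 99 library ratios and 54 of 72 shares. Differences between tumors of a group were not measured, since each group had 1 library. Ccl2 and Ccl3 had the fewest UMIs.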
